A study of Homo sapiens with 13 samples.

Results

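The 42 genes described here are the forkhead transcription factor genes outside the FOXA subfamily. They were taken as every protein-coding gene of GENCODE release 44 whose symbol is FOX, then 1 letter from B to S, then a number, and they were 42 of 20007 protein-coding genes on chromosomes 1 to 22, X and Y. ATAC-seq, an assay that marks open chromatin by where a transposase can insert sequencing adaptors, was carried out in H82 and H146, 2 established human small cell lung cancer (SCLC) cell lines labelled wild type. Each line was either left untreated (3 H82 and 4 H146 libraries) or treated with the SMARCA4/SMARCA2 ATPase inhibitor FHD-286 at 100 nM for 14 days (3 libraries in each line), and all cells were frozen before the assay. The deposited data were 1 list of accessible regions per line, an atlas, that joins the regions of its untreated and its treated libraries. Each is listed by chromosome, start and end on hg38, with no height, read count or library of origin.

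Each line therefore gave 1 value, with no replicate, error or test, and the effect of FHD-286 on these genes was not analysed. Whatever differs between H82 and H146 below describes these 2 lists, and the line cannot be told apart from the number of libraries, their unknown depth, the 2 sequencing batches of H146 or the DNA copies of a locus. The H82 atlas held 206927 regions over 5.41% of the chromosomes and the H146 atlas 174093 regions over 4.49%. Of the SCLC subtype factors, NEUROD1 had a region at its start in H82 only, and POU2F3 and YAP1 in both lines. The neuroendocrine genes INSM1, SYP, CHGA and NCAM1 had one in both lines, as did the fibroblast genes COL1A1 and PDGFRA and the endothelial gene PECAM1, while the leukocyte genes PTPRC and CD3E had none.

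Forkhead proteins bind DNA through a winged-helix domain, and letters after FOX name subfamilies by the similarity of that domain. Many members direct the development of particular organs, such as FOXE3 in the lens and FOXN1 in the thymus. Others act in nearly all cells, such as the FOXO factors, which insulin signalling through AKT keeps out of the nucleus, and FOXM1, which drives genes of mitosis.

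The DNA just upstream of the transcription start site (TSS) is shown for 5 members that stand for the patterns found at the start sites. These are FOXB2 and FOXI2 with a region there in H82 only, FOXI1 in H146 only, FOXR2 in neither line, and FOXQ1 in both within 1 kb, although its H146 region, 367 bp wide, lay 627 bp from the TSS. FOXQ1 lies outside the rule for named genes and was chosen after its values were seen. The sequences are the 250 bases before the TSS on the gene's strand, from RefSeq on GRCh38.p14, which gave an entry for 32 of the 42 genes. Those without one included FOXC2, FOXE3, FOXF1, FOXH1, FOXJ1, FOXL1, FOXM1, FOXN2 and FOXS1. Capitals mark CG dinucleotides.
FOXB2 chr9:77019405-77019654 (+): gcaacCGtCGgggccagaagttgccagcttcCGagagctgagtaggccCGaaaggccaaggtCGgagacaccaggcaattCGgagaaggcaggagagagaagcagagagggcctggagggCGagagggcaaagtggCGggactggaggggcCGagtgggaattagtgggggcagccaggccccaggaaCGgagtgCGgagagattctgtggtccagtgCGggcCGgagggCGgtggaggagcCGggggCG
FOXI2 chr10:127736935-127737184 (+): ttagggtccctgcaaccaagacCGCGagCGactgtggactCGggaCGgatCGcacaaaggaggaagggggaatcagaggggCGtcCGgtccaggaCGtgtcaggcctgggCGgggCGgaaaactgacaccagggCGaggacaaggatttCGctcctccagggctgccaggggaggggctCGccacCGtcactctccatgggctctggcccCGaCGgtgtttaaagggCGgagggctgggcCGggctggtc
FOXI1 chr5:170105647-170105896 (+): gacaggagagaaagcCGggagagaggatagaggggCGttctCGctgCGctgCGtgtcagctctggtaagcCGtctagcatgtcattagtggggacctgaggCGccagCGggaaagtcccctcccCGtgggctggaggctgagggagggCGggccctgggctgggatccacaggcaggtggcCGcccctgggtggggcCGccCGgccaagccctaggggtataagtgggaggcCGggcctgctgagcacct
FOXR2 chrX:55623150-55623399 (+): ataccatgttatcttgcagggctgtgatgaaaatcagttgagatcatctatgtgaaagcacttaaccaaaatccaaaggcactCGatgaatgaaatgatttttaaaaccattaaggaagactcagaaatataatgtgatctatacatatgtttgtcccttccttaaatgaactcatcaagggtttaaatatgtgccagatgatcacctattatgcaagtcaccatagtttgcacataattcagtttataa
FOXQ1 chr6:1311848-1312097 (+): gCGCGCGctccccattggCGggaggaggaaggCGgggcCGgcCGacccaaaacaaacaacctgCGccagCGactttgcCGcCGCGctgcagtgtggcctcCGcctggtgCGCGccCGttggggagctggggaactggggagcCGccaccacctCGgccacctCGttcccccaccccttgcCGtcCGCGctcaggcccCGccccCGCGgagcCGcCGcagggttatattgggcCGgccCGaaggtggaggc

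The FOXB2 sequence held 16 CG dinucleotides, that of FOXI2 19, that of FOXI1 14, that of FOXR2 1 and that of FOXQ1 29. The median over all genes with an entry was 11, so FOXR2 was the CG-poor member of the 5. The forkhead word TGTTTAC, searched on both strands, was in none of the 5 sequences and in 2.98% of all 27305 RefSeq promoters (the 250 bases before the TSS, 1 promoter per gene). The E-box word CAGATG was in the FOXR2 sequence and in 12.2% of all promoters.

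A second set of sequences shows the forkhead word TGTTTAC in regions found in 1 line only at FOXP1, a member described in full below. These 5 sites lay in H146-only regions. Each is printed 5′ to 3′ on the strand that carries the word, on hg38, with the word in capitals and 11 bases to either side.
FOXP1 chr3:71016852-71016880 (-): gtgtgtctgtgTGTTTACtttttatgctc
FOXP1 chr3:71027250-71027278 (-): tattggaacttTGTTTACggtcgttggtt
FOXP1 chr3:71041602-71041630 (-): acactaggcttTGTTTACtgactctttga
FOXP1 chr3:71049065-71049093 (+): acgggtccattTGTTTACttctcacaatt
FOXP1 chr3:71363640-71363668 (-): tggaggacaaaTGTTTACcatacataaac

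The question asked of the start sites was which forkhead genes had accessible chromatin there in each line. A region within 1 kb of the TSS was present in both lines for 30 of the 42 genes (71.4%, against 75.4% of all protein-coding genes). It was present in H82 only for 7 genes (16.7%, against 5.09% of all), in H146 only for 1 gene (2.38%, against 1.86%) and in neither line for 4 genes (9.52%, against 17.7%). Within 5 kb of the TSS the H82-only share fell to 3 genes (7.14%, against 4.62% of all). The H82-only genes included FOXB2, FOXD4, FOXI2, FOXL1, FOXN1 and FOXR1, the H146-only gene was FOXI1, and the 4 without a region were FOXC2, FOXL3, FOXP3 and FOXR2. All 12 broadly used members (FOXO1, FOXO3, FOXO4, FOXK1, FOXK2, FOXM1, FOXN2, FOXN3, FOXJ2, FOXJ3, FOXP1 and FOXP4) had a region at the TSS in both lines, so every start site that differed lay outside this group.

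Of the 8 neural and sensory members, 6 had a TSS region in both lines and 2 in H82 only. FOXB2, a factor of the embryonic nervous system with a single exon on chr9:77019655-77020953, was covered whole by an H82 region of 2822 bp (chr9:77018319-77021140). In H146 the nearest region was 3471 bp away, and the gene body was covered to 0%.

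Among the 7 epithelial and glandular members, 4 had a TSS region in both lines, 2 in H82 only and 1 in H146 only. FOXN1, the factor of thymic epithelium and hair follicles on chr17:28506243-28538900, had an H82 region of 850 bp that ended 82 bp short of its TSS, and its nearest H146 region was 1562 bp away. FOXI2 had an H82 region of 282 bp over the TSS (chr10:127737007-127737288), and the nearest H146 region was at 1416 bp. Unlike FOXB2, FOXI2 was covered to a similar share of its body in both lines, 38.6% in H82 and 36.0% in H146. FOXI1, a factor of acid-secreting cells of the kidney and inner ear, showed the opposite pattern, with an H146 region of 283 bp over the TSS (chr5:170105671-170105953) and no H82 region within 34774 bp.

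Among the 7 members of the germline, gonad, early embryo and immune group, 2 had a TSS region in both lines, 2 in H82 only and 3 in neither. At FOXD4 the TSS lay inside a 1964 bp region in H82 (chr9:116736-118699) and the nearest H146 region lay 1242 bp away. That H146 region, 440 bp wide and over the exon, overlapped the same H82 region, so the region itself was shared and the lines differed in its reach to the TSS. FOXD4 has near-identical copies, the FOXD4L genes, so reads may be placed on the wrong copy and its class is uncertain. FOXR1 had an H82 region of 371 bp that began 14 bp inside the gene, and its nearest H146 region was 7624 bp away. FOXP3, the factor of regulatory T cells, had no region closer to its TSS than 1843 bp in H82 and 3902 bp in H146. FOXL3 had none closer than 2209 bp in H82 and 1336 bp in H146. FOXR2, known as an oncogene of neural tumours, had no region in its whole window in either line, with the nearest at 93925 bp in H82 and 93964 bp in H146.

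Of the 8 mesoderm and mesenchyme members, 6 had a TSS region in both lines, 1 in H82 only and 1 in neither. FOXL1, which marks cells under the gut epithelium, had an H82 region of 808 bp (chr16:86575706-86576513) and no H146 region within 12096 bp. Its neighbour FOXC2, a factor of lymphatic vessels, had none within 2557 bp in H146 or 2707 bp in H82.

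The regions at the 30 start sites accessible in both lines were of similar width, with a median of 3070.5 bp in H82 and 2953 bp in H146, against 1832 bp and 1732 bp over all protein-coding genes of that class. The region was wider in H82 for 14 genes, wider in H146 for 13 and equal for 3. FOXO6, the FOXO factor of neurons, had the widest in H82 at 10491 bp (chr1:41357186-41367676), against 3505 bp in H146 (chr1:41360154-41363658). FOXJ1, the master factor of motile cilia, came next, at 8990 bp in H82 against 8729 bp. Those of FOXS1 measured 6563 bp and 6736 bp, and those of FOXO3 5649 bp and 5698 bp, so these 3 differed little beside FOXO6. Reads of FOXO3 may also be placed on its copy FOXO3B. FOXQ1 and FOXF2, named after their values were seen, had a narrow region in H146: 367 bp against 2362 bp in H82 for FOXQ1, and 885 bp against 2535 bp for FOXF2. At the 7 genes with a TSS region in H82 only, that region had a median width of 808 bp, against 652 bp over all 1019 genes of that class.

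**Figure D1:**
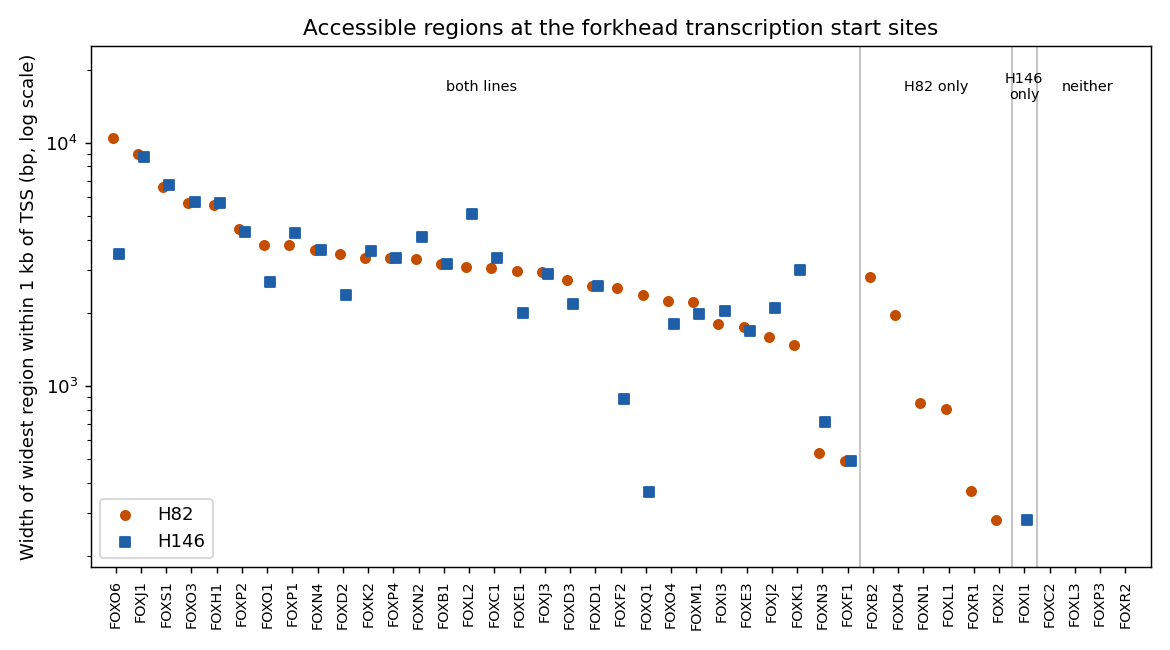
Width in bp, on a log axis, of the widest accessible region within 1 kb of the TSS of each of the 41 forkhead genes drawn, with circles for the H82 atlas and squares for the H146 atlas, 1 value per line and no error. The 30 genes accessible in both lines stand at the left, then 6 with a region in H82 only, FOXI1 with 283 bp in H146 only, and the 4 with none. FOXO6, at 10491 bp against 3505 bp, and FOXQ1, at 2362 bp against 367 bp, show wide gaps between the lines.

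Base composition was set beside these classes. The ratio of observed to expected CG dinucleotides from 250 bases before to 50 bases after the TSS had a median of 0.865 in the 30 members accessible in both lines, 0.731 in the 7 accessible in H82 only and 0.8 in the 4 accessible in neither. FOXI1 had 0.461. Over all protein-coding genes the medians were 0.787 for both lines, 0.326 for H82 only, 0.249 for H146 only and 0.21 for neither, so the forkhead medians for H82 only and for neither line lay above those of all genes in the same class. Within the H82-only group the ratio ran from 0.332 at FOXN1 to 1.1 at FOXL1. Among the 4 genes without a region, FOXC2 had 0.976, FOXL3 0.92, FOXP3 0.679 and FOXR2 0.11. In gene structure the members were short, with a median length of 5988.5 bp against 27466 bp for all genes, and 12 of 42 had a single exon (28.6%, against 4.82%). A long non-coding RNA gene started within 5 kb of the TSS of 17 members (40.5%, against 21.5%).

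The share of bases covered by regions was next compared over each gene body with 50 kb to either side, called the window. The median share was 9.57% in H82 and 7.08% in H146 for the members, and 7.53% and 6.16% for all protein-coding genes. The share was larger in H82 for 22 members (52.4%, against 63.7% of all genes), larger in H146 for 19, and 0% in both lines for FOXR2. The order of members and all genes depended on the window: it was 64.3% against 59.4% with 10 kb to either side and 66.7% against 65.1% with 100 kb. The median difference, H82 minus H146, was 0.301 percentage points for the members and 0.731 for all genes, and with 10 kb to either side it was 1.14 against 0.633. When each share was divided by its line's share of the genome, 16 members (38.1%, against 45.6% of all genes) were higher in H82, and the median difference of these ratios was -0.105, against -0.0415 for all genes. By role, the share was larger in H82 for 7 of 12 broadly used members, 6 of 8 neural and sensory, 4 of 8 mesoderm and mesenchyme, 4 of 7 epithelial and glandular, and 1 of 7 in the germline, gonad, early embryo and immune group, where 5 were larger in H146. The shares of broadly used members ran from 3.52% (FOXP1) to 27.2% (FOXP4) in H82 and from 2.41% (FOXO1) to 25.9% (FOXP4) in H146. The 7 neural and sensory members reported ran from 5.78% to 42.2% and from 5.24% to 16.8%, in the same order of lines. The range was 1.71% to 44.5% and 1.93% to 43.1% for mesoderm and mesenchyme, with FOXS1 highest in both lines. It was 0.488% to 25.4% and 0.514% to 22.2% for epithelial and glandular members, where FOXI1 was lowest in both lines and FOXJ1 had 23.7% and 22.2%. Windows overlapped at 3 loci (FOXE3 with FOXD2, FOXQ1 with FOXF2, and FOXF1 with FOXC2 and FOXL1), which leaves 38 separate loci.

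FOXO6 on chr1:41361922-41383590 had the largest difference, with 42.2% of its window covered in H82 and 16.8% in H146. Of its 28 H82 regions 13 were H82-only, 10 of them downstream of the gene, and of its 20 H146 regions 2 were H146-only. FOXN1 followed with 25.4% against 10.0%, and 23 of its 37 H82 regions were H82-only, 12 of them upstream of the gene. The FOXN1 window also held 7 other protein-coding genes, so its regions need not belong to FOXN1. FOXE3, a lens factor, had 15.1% in H82 and 6.96% in H146, and its neighbour FOXD2 had 14.9% and 7.19%. Their windows overlap, so these are largely the same regions and do not count as 2 loci. FOXO3, a factor of the response to stress and starvation, had 13.1% and 6.30%, with 24 of 36 H82 regions H82-only against 2 of 14 in H146.

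**Figure D2:**
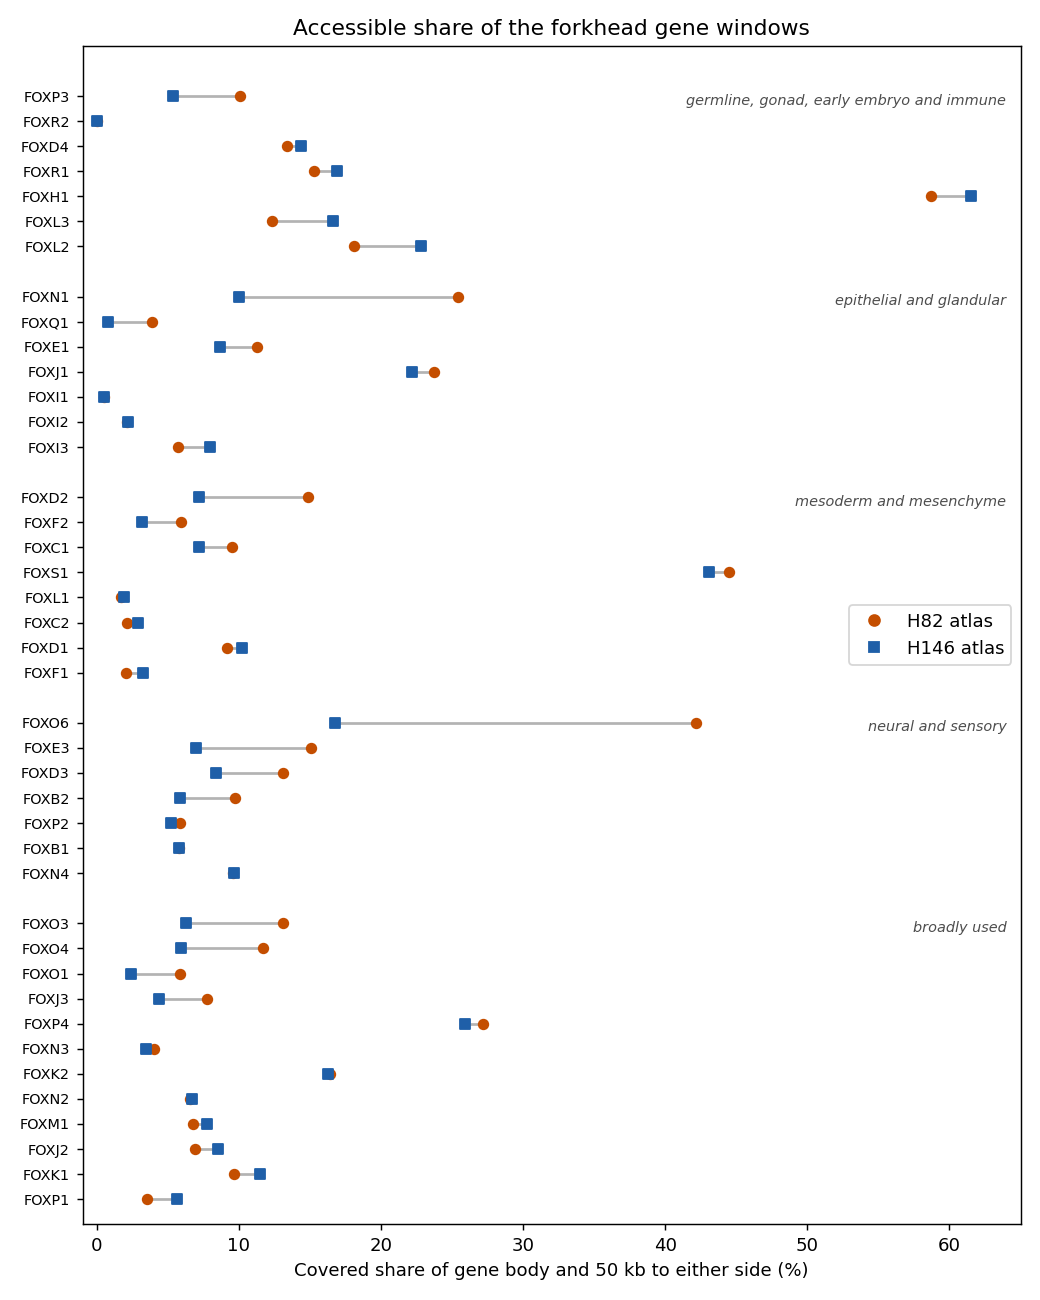
Share of bases (%) covered by accessible regions in the gene body and 50 kb to either side for the 41 forkhead genes drawn, grouped by role and ordered by the difference between lines, with circles for H82 and squares for H146, 1 value per line and no error. The longest bars, at FOXO6 (42.2% against 16.8%) and FOXN1 (25.4% against 10.0%), point to H82, while FOXL2 (18.1% against 22.8%) points to H146.

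The largest differences toward H146 were smaller. FOXL2, the granulosa cell factor of the ovary on chr3:138944224-138947137, had 18.1% in H82 and 22.8% in H146, with a TSS region of 3081 bp and 5114 bp. Its gene body ran the other way, covered to 77.4% in H82 and 53.1% in H146. FOXL3 had 12.3% and 16.6%, although neither line had a region at its TSS. FOXH1, which carries Nodal signals with SMAD proteins, lay in a gene-dense window covered to 58.7% and 61.5%. FOXI3, a factor of ectodermal organs, had 5.72% and 7.99%. FOXP1, a factor of lymphoid, lung and neural development on chr3:70954693-71583978, had 3.52% in H82 and 5.65% in H146.

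The regions of FOXP1 found in 1 line lay mostly in its introns. The window held 34 regions in H82 and 49 in H146, of which 3 were H82-only and 19 H146-only. Of the 19 H146-only regions, 17 were intronic and 2 overlapped exons, and none lay over the main TSS, where both lines had a region (3802 bp and 4266 bp). Of the 67 annotated transcript starts of FOXP1, 35 lay inside a region in H82 and 39 in H146, and the 4 that differed were accessible in H146 only. The word TGTTTAC occurred in 5 of the 19 H146-only regions and in 0 of the 3 H82-only regions, and these are the 5 sites printed above. It also occurred in 12 of the 30 shared H146 regions and 12 of the 31 shared H82 regions of FOXP1, a larger share than in the H146-only regions. Shared regions were wider, and per base the order was reversed. The H146-only regions held 5 matches in 7988 bp. The shared regions held 15 in 33206 bp in H146 and 14 in 24151 bp in H82. Base composition and width differ between such small sets, and the counts are a description.

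**Figure D3:**
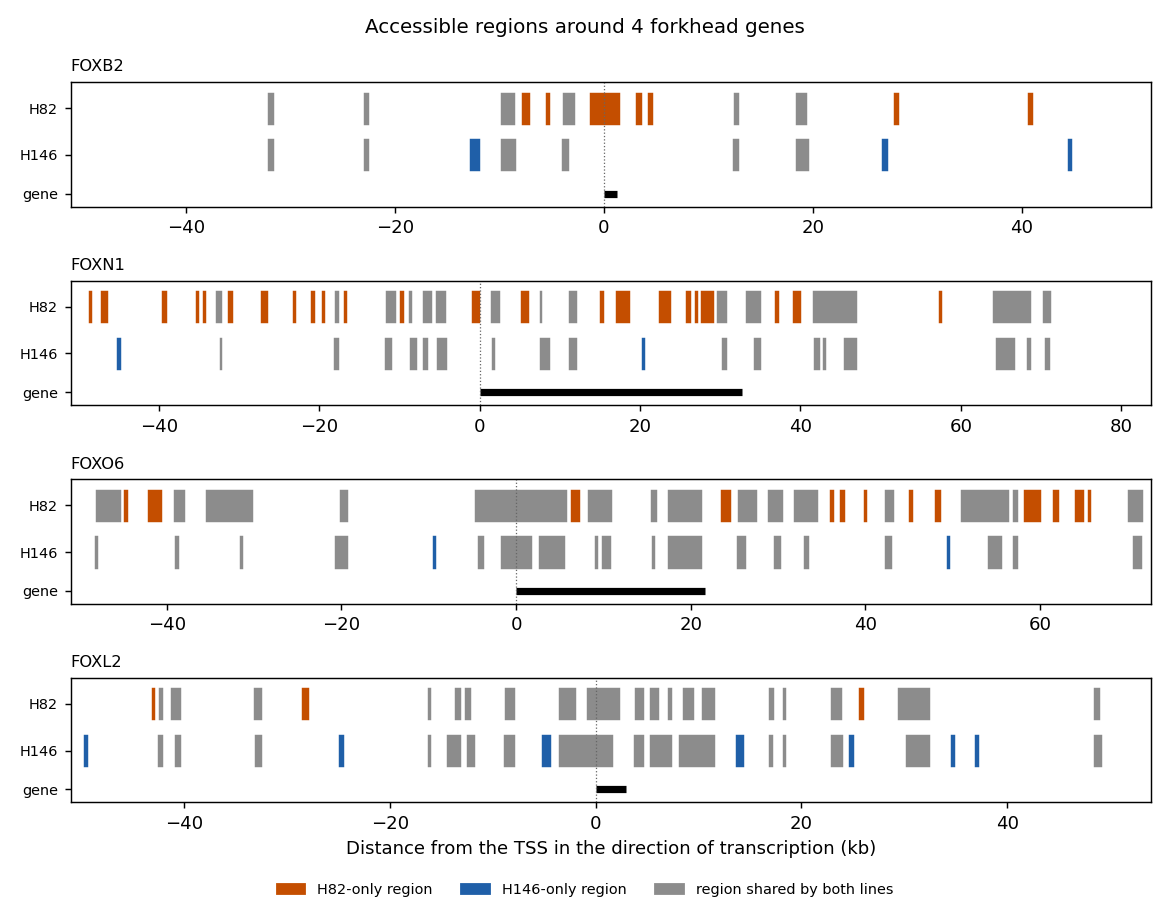
Accessible regions of H82 and H146 around FOXB2, FOXN1, FOXO6 and FOXL2 by distance in kb from the TSS (dotted line) in the direction of transcription, with the gene as a black bar, line-only regions coloured and shared regions grey. FOXB2 has an H82-only region over the gene itself, and the H82 region over the FOXO6 start (10491 bp) spans several narrower H146 regions.

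Not all long genes pointed to H146. FOXO3 had 12 H82-only intronic regions and 1 H146-only, with a TSS region of nearly equal width in both lines. FOXO1, singled out after its values were seen, counted 16 regions in the H82 atlas against 6, with 12 H82-only and 2 H146-only, and shares of 5.83% and 2.41%. FOXP2 and FOXN3, likewise singled out, had 17 of 55 and 22 of 43 H82 regions that were H82-only, and 9 of 45 and 12 of 33 H146 regions that were H146-only. FOXJ3 had 10 H82-only and 2 H146-only regions, FOXK2 14 and 15, and FOXK1 3 and 9. Of these 8 longest members, FOXP1, FOXK1 and FOXK2 thus had more H146-only than H82-only regions, and FOXO1, FOXO3, FOXP2, FOXN3 and FOXJ3 had fewer. Genome-wide there were 84208 H82-only regions (40.7% of the H82 atlas) and 51303 H146-only regions (29.5% of the H146 atlas). More H82-only than H146-only regions was thus also the order of the whole atlases. At FOXP2 the line-only share was below that of the genome in both lines.

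**Figure D4:**
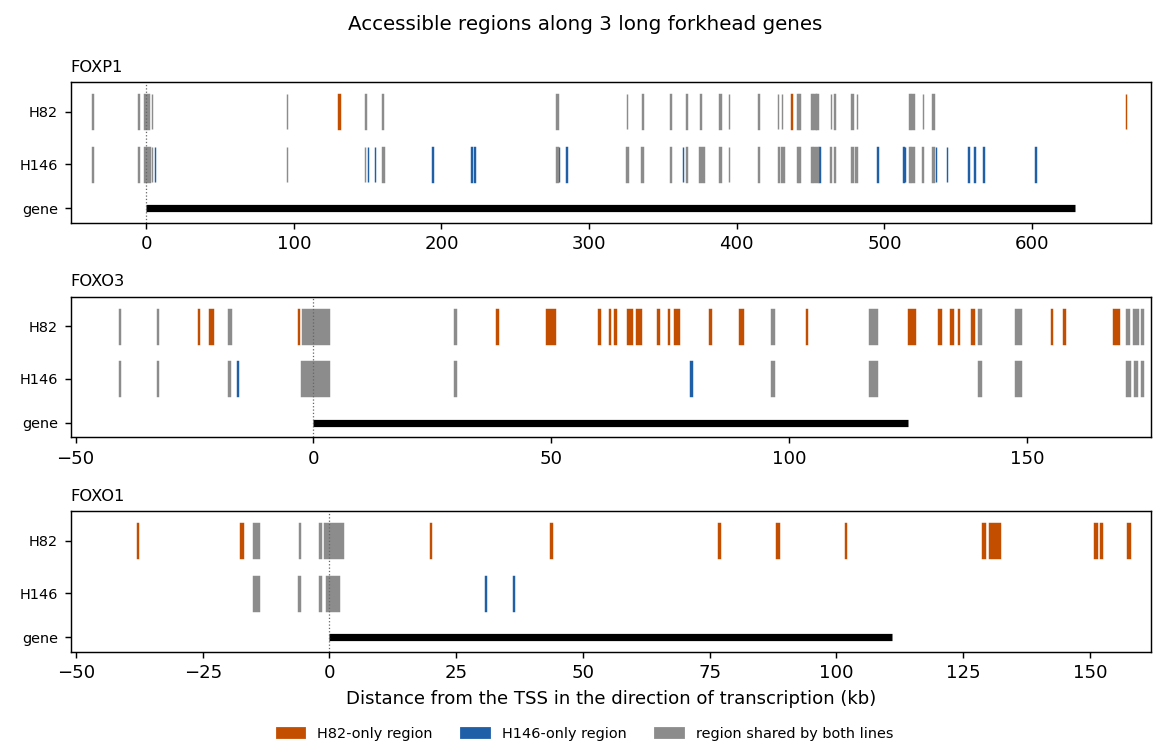
Accessible regions of H82 and H146 along FOXP1, FOXO3 and FOXO1 by distance in kb from the TSS (dotted line) in the direction of transcription, with the gene as a black bar, line-only regions coloured and shared regions grey. FOXP1 has 19 H146-only regions against 3 H82-only, and FOXO3 has 24 H82-only against 2 H146-only.

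Each window was also set beside the 1 Mb to either side of it, to show whether the lines differed in the surrounding DNA as well. At FOXN1 the share was 2.54 times as high in H82 as in H146 in the window and 1.53 times in the neighbourhood (13.8% and 9.05%). FOXB2 had 1.66 times in the window and 1.36 times nearby, and FOXO3 2.08 and 1.57 times. For FOXO6 the ratios were 2.52 and 2.26, for FOXE3 2.16 and 2.05, and for FOXD2 2.08 and 2.04, so around these 3 genes the neighbourhood differed nearly as much as the window. FOXP1 ran the other way, with 0.623 in the window and 1.41 nearby, as did FOXI3 with 0.716 and 1.1. FOXL2 had 0.792 and 0.938, FOXL3 0.738 and 0.794, and FOXH1 0.954 and 0.915. Around FOXL2, FOXL3 and FOXH1 the neighbourhood thus also had the larger share in H146. FOXQ1 and FOXO1 had 5.06 and 2.42 in the window against 1.26 and 1.21 nearby. The FOXQ1 ratio is one of small shares, 3.87% over 5 regions in H82 and 0.764% over 2 regions in H146. In all, the window ratio was above the neighbourhood ratio for 17 of 41 members (41.5%), against 47.1% of 19672 protein-coding genes with a ratio. No file used here gives depth or DNA copies, and their part in these differences was not tested.

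**Figure D5:**
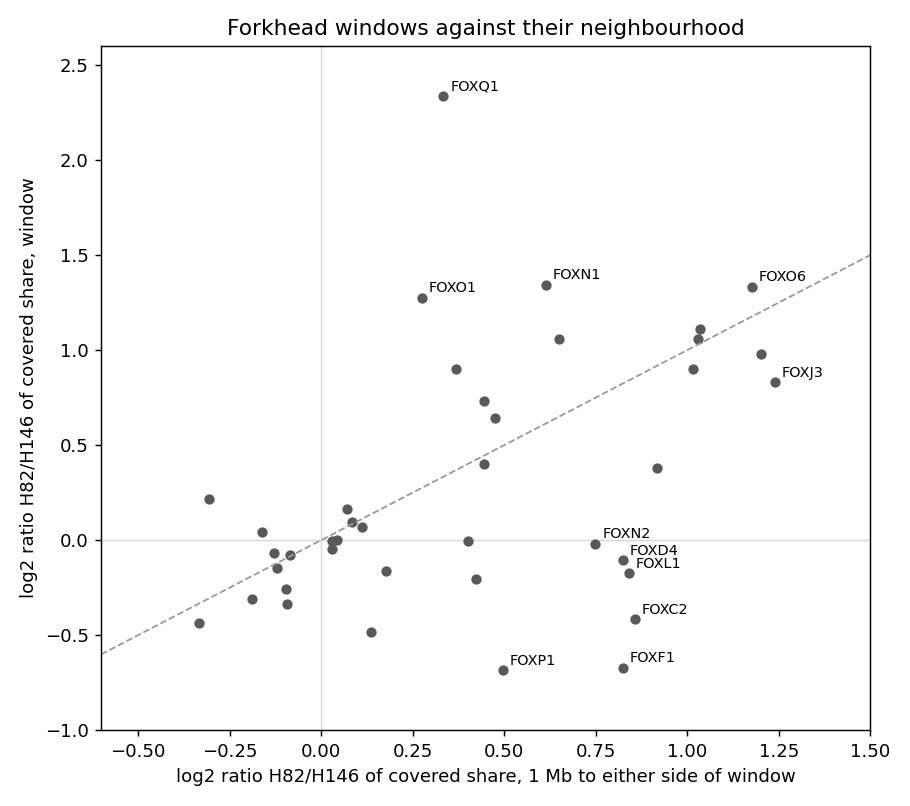
Log2 ratio of H82 to H146 covered share in the window of each forkhead gene (vertical axis) against that in the 1 Mb to either side of the window (horizontal axis), 40 genes drawn, with a dashed line where both are equal. FOXQ1, FOXO1 and FOXN1 lie above the line, FOXO6 lies near it, and FOXP1 and FOXF1 lie far below.

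Over the windows of all members there were 716 H82 regions, of which 256 were H82-only (35.8%, against 40.7% of H82 regions genome-wide), and 605 H146 regions, of which 143 were H146-only (23.6%, against 29.5%). Line-only regions were narrower, with medians of 389.5 bp in H82 and 303 bp in H146, against 741.5 bp and 732 bp for shared regions. They were narrower genome-wide too, at 377 bp and 315 bp against 610 bp and 662 bp. Counted per gene, 15.8% of H82 regions at a TSS were H82-only, against 29.8% in exons, 39.6% in introns, 35.9% upstream and 38.4% downstream. In H146 the corresponding shares were 3.12% at the TSS, 17.5% in exons, 35.7% in introns, 19.2% upstream and 22.5% downstream. The line-only share was thus lowest at the TSS in both lines. Regions at the TSS were also wider, with medians of 2782 bp in H82 and 2793.5 bp in H146, against 483 bp and 443.5 bp in introns. Sharing needed only 1 bp of overlap, and the part of width in this order was not tested. The same shares over all genes were not computed.

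Words bound by factors of interest were counted on both strands in these regions. In H82-only regions of the members TGTTTAC occurred 0.0932 times per kb (0.13 in H82-only regions genome-wide), and in H146-only regions 0.278 times per kb (0.315 genome-wide). The OTX2 word TAATCC occurred 0.932 times per kb in H82-only regions (1.26 genome-wide) and 0.445 in H146-only regions (0.448 genome-wide). For the E-box CAGATG the density per kb was 1.13 in H82-only regions (1.24 genome-wide) and 0.852 in H146-only regions (0.895 genome-wide). The order of the lines near forkhead genes was for each of these 3 words that of the genome, with lower densities in the members. The forkhead word TGTTTAT also kept the genome's order, with 0.129 per kb in H82-only regions (0.217 genome-wide) and 0.296 in H146-only regions (0.298 genome-wide). The E-box CAGCTG did not. It had 0.86 per kb in H82-only regions (0.809 genome-wide) and 0.778 in H146-only regions (0.878 genome-wide). These member densities rested on 120 and 42 matches, and those of TGTTTAC on 13 and 15. Member regions were also richer in GC, at 51.4% against 48.9% genome-wide for H82-only regions and 50.1% against 46.9% for H146-only regions. The part of base composition and of small counts was not tested.

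Genes that work with these factors were read from lists for the class of their start sites. All 9 genes of the signalling upstream of FOXO (such as AKT1 and SGK1), all 8 mitosis genes driven by FOXM1 (such as PLK1 and CCNB1) and all 6 cilia genes driven by FOXJ1 (such as DNAI1) had a TSS region in both lines. Of 8 other forkhead genes, FOXA1, FOXA2, FOXA3 and 4 FOXD4L copies had one in both lines, and FOXD4L1 in H82 only. An accessible start site does not measure expression, and these counts stand beside 75.4% for all protein-coding genes.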

How the data were processed

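ATAC-seq libraries of H82 and H146 cells were prepared and sequenced at a service provider. The authors trimmed reads with Trim Galore 0.4.4, aligned them to hg38 with Bowtie2 2.3.4, removed duplicates with Picard, called regions per library with MACS2, removed blacklisted regions and merged regions within 500 bp over the libraries of a line. They counted reads over the atlas with featureCounts 1.6.0 for their own test of FHD-286, not used here. The deposited values are positions only (start counted from 0, and end, in bp), and 0 columns were left aside. Depth per library is unknown. Pooling lists a region seen in any library, treated or not, and merging widens regions. Of the H146 libraries, 3 controls were sequenced in one batch, and 1 control and 3 treated libraries in another.

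Positions were read 1-based on 24 chromosomes and joined to GENCODE release 44 with Python 3.11.15, numpy 2.4.6 and pandas 2.3.3. Sequences were read with samtools 1.23.1. The TSS was the 5′ end of the gene. A region counted as shared if 1 bp or more of it lay in a region of the other atlas, and otherwise as line-only. The interval code was checked on simulated data. Counts and medians cover all members, 1 of which is not reported here by itself and is left out of the figures. No test was run, because there is 1 atlas per line. Members and lists were chosen with earlier results of these data known. Members were named if their TSS class differed between lines or was neither, if they were among the 5 largest or 5 smallest differences in covered share, or if they had 1 of the 3 widest TSS regions of a line. Alternatives were other distances and windows, any transcript start, counts of regions, regions of at least 500 bp, atlases of equal number, shares relative to the genome, merged loci, and other rules of overlap.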

Additional observations from a re-analysis of the deposited data

How the results depend on the processing

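No alternative gives an error, since each line is 1 pooled atlas, so leaving out replicates could not be done. No paired analysis was possible because the atlases carry no replicate. The members without a TSS region numbered 4 (3533 of all genes), and 7 (5124) with a region over the TSS base, 1 (1901) within 5 kb, 2 (2446) for the TSS of any transcript and 8 (4570) with regions of at least 500 bp. FOXC2, FOXL3 and FOXP3 had a region in both lines within 5 kb. For any transcript FOXL3 was H146 only and FOXP3 H82 only. The H82-only members numbered 7 (16.7%, against 5.09% of all genes), and 3 (7.14% against 4.62%) within 5 kb, so most of the gap to all genes was lost there, where FOXB2, FOXD4, FOXI2 and FOXN1 had a region in both lines. FOXR1 was in the neither class over the TSS base and at 500 bp and in both lines for any transcript, FOXN1 was in neither over the TSS base, and FOXI2 in neither at 500 bp. FOXQ1 went from both to H82 only, and FOXF1 from both to neither, over the TSS base and at 500 bp. The H146-only members numbered 1, and 2 for any transcript and 0 at 500 bp. Keeping the widest H82 regions, as many as H146 has, moved no member between classes. The median difference in covered share, 0.301 points, (0.731 for all genes) was 1.14 (0.633) with 10 kb and 0.473 (0.733) with 100 kb to either side, so members passed all genes at 10 kb. It was 0.185 around the TSS, 0.128 at 500 bp, 0.192 with equal numbers and -0.105 (a difference of ratios) relative to the genome, where the sign reversed. The H82-only share of 35.8% was 50.4% with 50% overlap and 31.3% at 500 bp, and the H146-only share of 23.6% was 41.2% with 50% overlap and 29.4% with equal numbers. Genome-wide shares were not computed under these rules, so the order of members and genome is not known there. The difference of a named gene reversed with 10 kb to either side for FOXC2 (3.13), FOXI2 (1.18), FOXL1 (2.98) and FOXR1 (1.23), with 100 kb for FOXD4 (3.27), FOXI1 (0.153), FOXI2 (0.212), FOXR1 (0.785) and FOXS1 (-1.04), and relative to the genome for FOXJ1 (-0.559) and FOXS1 (-1.38). FOXI1 and FOXI2 were at 0 with regions of at least 500 bp. The remaining named genes kept their sign under these settings, except FOXR2, which moved from 0 to 0.0242 with 100 kb. The cause of these moves was not tested.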
